A study of Bos taurus with 138 samples.

Results

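The mRNAs of the nuclear pore and of the nuclear transport receptors were followed from the bovine oocyte to the blastocyst, in whole transcriptomes and in polysomes. The genes were chosen by symbol alone. They are all rows of the count table whose symbol starts with NUP, KPNA, IPO, XPO, TNPO, NXF, NXT or RANBP followed by a digit, and also KPNB1, XPOT, NDC1, RANGAP1, RAN, SEH1L, SEC13, AAAS, RAE1, GLE1 and NUTF2. This rule gave 66 of 16706 genes, and TPR, which it also lists, was not analysed here. By known role, 29 of them encode parts of the pore (8 of the outer ring or Y complex, 5 of the inner ring, 3 of the central channel, 3 membrane anchors, 8 of the cytoplasmic face and 2 of the nuclear basket), 7 are importin alphas and 19 belong to the importin beta family. The other 11 are 3 messenger RNA export receptors, 6 genes of the Ran cycle and a pair that share only the RANBP name.

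The nuclear pore complex is a ring of nucleoporins set in the nuclear envelope, through which proteins and RNA pass in both directions. Importin alphas (KPNA genes) bind the nuclear localisation signal of a cargo and carry it with importin beta (KPNB1), whereas most other members of the importin beta family bind their cargo themselves. The small GTPase RAN sets the direction of travel. KPNA7 is an importin alpha known from oocytes and early embryos. The envelope and its pores are taken apart when the oocyte resumes meiosis and are rebuilt after fertilisation. The embryo lives on maternal mRNA until its own genome is activated, in cattle mainly at the 8-cell stage.

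The oocytes were taken before maturation, with an intact germinal vesicle (GV), and after it, in metaphase II (MII). The embryos were at the 2-cell, 8-cell, morula and blastocyst stages. GV oocytes came from slaughterhouse ovaries, and MII oocytes were matured in vitro and freed of cumulus cells. Embryos were made in vitro with semen of 1 bull, cultured and kept only at the best morphological grade, so every stage after GV carries a history of culture. Each stage had 2 sucrose gradients (A and B), each of pooled oocytes or embryos (about 100 by the study's methods, more by the series' design text) and cut into 10 fractions (F1 to F10). It also had 3 transcriptomes (A, B and C) of 20 pooled oocytes or embryos each. All groups had been given cycloheximide, which halts ribosomes on mRNA, shortly before collection.

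Following the study's classes, F8 to F10 were taken as polysomes and F3 to F5 as monosomes, and the 3 libraries of a class were summed into 1 pool per gradient. Levels are in CPM, the counts of a library or pool scaled to a fixed total with edgeR's TMM factors, so that a level is a share of the RNA sequenced. Total RNA per oocyte or embryo was not measured, and in such bulk samples fewer cells of a type and less RNA per cell cannot be told apart. The library kit primes on poly(A) tails, so a longer tail and more mRNA cannot be told apart either. Transcript lengths were not used, hence each gene is compared only with itself. Closely related genes could share reads that the counting had to divide, and their values are uncertain to that extent. Among them are the importin alphas with each other (KPNA2 with KPNA7 included), IPO5 with RANBP6, IPO7 with IPO8, TNPO1 with TNPO2, NUP210 with NUP210L and NXT1 with NXT2. A change between neighbouring stages was called at an adjusted p below 0.05 with a fold above 2, and polysomes were called higher or lower than the transcriptome of the same stage at an adjusted p below 0.05. Both come from the same fit in edgeR (quasi-likelihood test) to 18 transcriptomes and 12 polysome pools, 30 libraries in all, with Benjamini-Hochberg adjustment over the 14612 genes that passed the filter on low counts, all 66 members among them. A log2 fold change (log2FC) is given ± its standard error. Whether replicates came from separate collections is only partly stated, so the p-values measure only the spread between these samples, which may be technical. Leaving out the 6 transcriptomes lettered C ended 119 of the calls on the genes described here and is not repeated at each, nor are the calls that ended with the replicate letter as a block. Leaving out letter A or B leaves 1 polysome pool per stage. Counts of members with a letter left out are given without the share of all genes. They show how far the counts moved and are no result about the members.

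The transcriptomes held 3269386 to 11812567 counts and 13078 to 14333 detected genes. Those of blastocysts were the shallowest, at 3269386, 4970337 and 5256282 counts, against at least 8818251 at the other stages. The part of this depth in the results was not tested. The 120 fraction libraries held 1229382 to 17342859 counts, and 5 of them had fewer than 7500 detected genes. Of these thin libraries 3 enter a pool used here: F10 of MII gradient B, and F5 and F9 of morula gradient A. Counts for the stages of these 3 are also given without them where they changed. Summed markers separated oocytes from late embryos: 9 oocyte markers (GDF9, BMP15 and ZP3 among them) summed to between 19054 and 22045 CPM in GV transcriptomes and to between 20.7 and 121 in morulae. The 9 blastocyst markers (CDX2, KRT8 and GATA3 among them) summed to between 5150.1 and 6060 CPM in blastocysts and to between 60.3 and 68.6 in GV oocytes. Most of the blastocyst sum was KRT8 and KRT18 (means of 1757 and 3169 CPM). CDX2 was at a mean of 7.05 CPM there and 6.94 at the 2-cell stage. NANOG and PDGFRA had their highest mean at the 8-cell stage and GATA6 in morulae. A set of 12 cumulus and granulosa markers summed to between 567 and 698 CPM in GV and 592 and 801 in MII transcriptomes. The sum was between 402 and 446 CPM at the 2-cell stage, 286 and 1303 at the 8-cell stage and 20.4 and 25.7 in morulae. Most of the GV sum was STAR, at a mean of 543 CPM against 179 in MII and 45.9 at the 8-cell stage. TNFAIP6 had means of 0.0506 CPM in GV, 124 in MII, 0.154 at the 2-cell and 29.4 at the 8-cell stage. CYP11A1 and VCAN were highest at the 8-cell stage, at 86.2 and 379 CPM against 0.0338 and 45.4 in GV. The similar sums in GV and MII were thus made up differently. The part of these markers in the results was not tested.

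In the transcriptome more transport genes rose than fell during maturation, and more fell than rose at the blastocyst. From GV to MII, 15 of the 66 rose and 4 fell, against 6.61% and 10.5% of all genes tested, and the median member changed by 0.45 on the log2 scale against 0 over all genes. From MII to the 2-cell stage 4 rose and 7 fell (all genes, 6% and 5.96%). From the 2-cell to the 8-cell stage 13 rose and 15 fell (all genes, 26.6% and 23.5%). From the 8-cell stage to the morula 3 rose and 3 fell (6.6% and 7.75%). From morula to blastocyst 4 rose and 24 fell (10.2% and 11.4%), and the median member changed by -0.87 against -0.00503 over all genes. These counts moved with the libraries used. Without the transcriptomes lettered C, 2 rose and 3 fell from GV to MII, 9 rose and 9 fell at the 8-cell stage and 1 rose and 12 fell at the blastocyst. Without the libraries lettered A it was 21 and 8, 17 and 13, and 6 and 30, and without those lettered B 19 and 9, 17 and 17, and 5 and 32. The direction of the larger count at maturation thus turned only without C.

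In polysomes fewer of them were called at maturation, and so were fewer of all genes. From GV to MII 3 rose and 3 fell (all genes, 3.03% and 2.33%), and from MII to the 2-cell stage 6 rose and 6 fell (3.37% and 5.14%). At the 8-cell stage 15 rose and 10 fell (21% and 25.2%), at the morula 12 rose and 7 fell (18.5% and 17.7%), and at the blastocyst 3 rose and 10 fell (5.79% and 8.13%). Without the transcriptomes lettered C, which share the model's estimate of spread, 0 rose and 1 fell from GV to MII and 0 rose and 2 fell from MII to the 2-cell stage. Without the gradients and transcriptomes lettered A these counts were 6 and 19, and then 17 and 10. From morula to blastocyst the median member changed by -0.45 against -0.0241 over all genes. Without the 3 libraries of few detected genes, 10 rose and 7 fell from the 8-cell stage to the morula, and 3 rose and 8 fell from morula to blastocyst, while the counts at the steps to and from MII stayed at 3 and 3 and at 6 and 6.

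**Figure D1:**
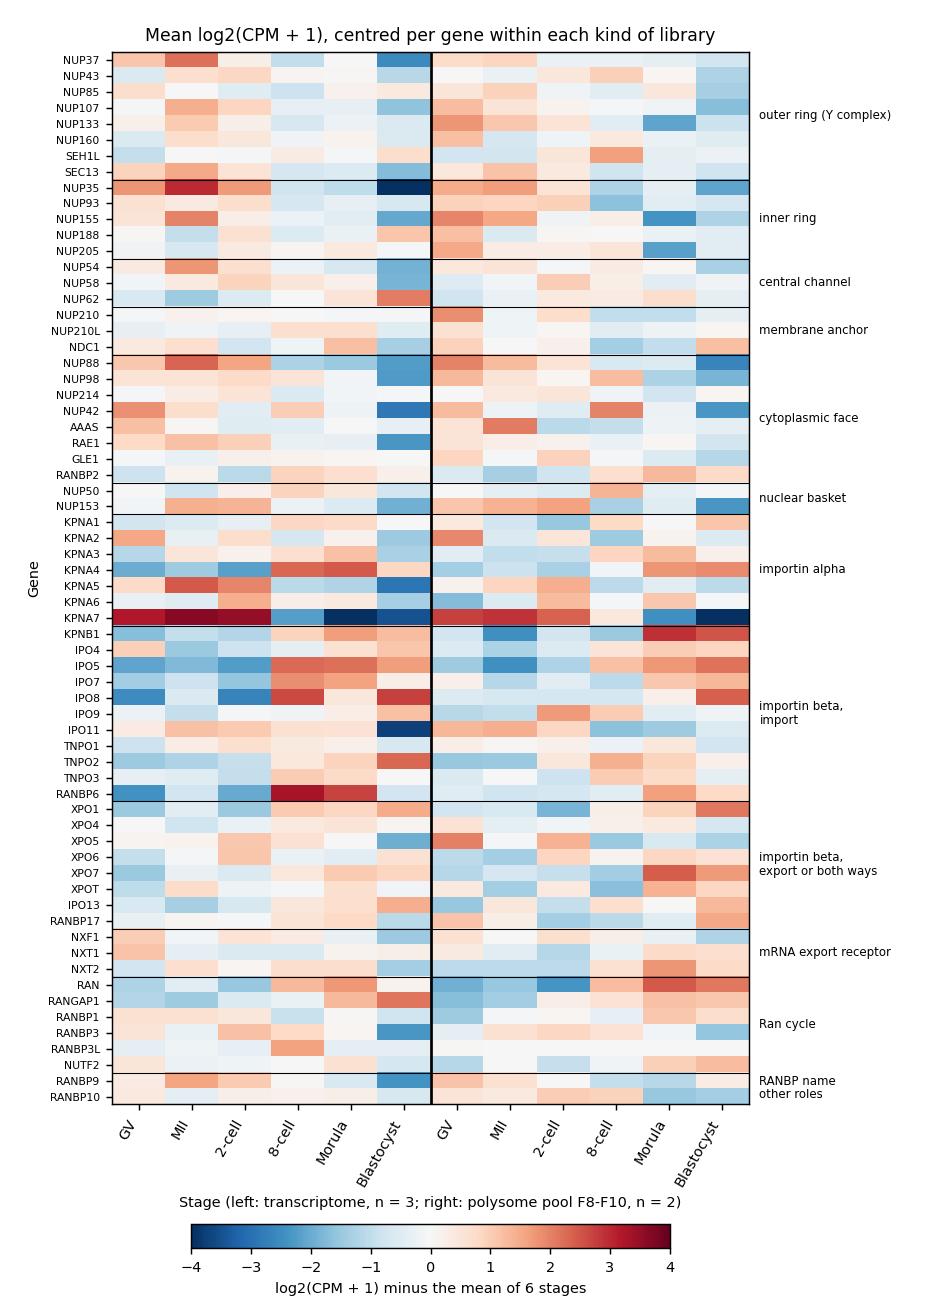
Each row is 1 of the 66 genes, ordered by role, and each column a stage, with the transcriptome (mean of 3 libraries) on the left and the polysome pool F8-F10 (mean of 2) on the right. Colour is log2(CPM + 1) minus the gene's own mean over the 6 stages within that kind of library. NUP35, NUP54, NUP88 and NUP155 are reddest in MII transcriptomes, where 17 of the 66 genes have their highest mean, and KPNB1, IPO5, IPO7 and RAN turn from blue to red at the 8-cell stage in transcriptomes.

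By highest mean level, 17 of the 66 mRNAs peaked in MII transcriptomes (25.8%, against 17.5% of 12818 genes with a mean of at least 1 CPM) and 9 in blastocysts (13.6% against 25.0%). In polysomes 16 peaked in GV oocytes (24.2% against 14.2%) and 16 in morulae (24.2% against 18%). Without the 3 thin libraries 17 peaked in GV oocytes (25.8% against 14.7%) and 13 in morulae (19.7% against 16.3%). Of the 64 members with a mean of at least 1 CPM, 10 had all their GV, MII and 2-cell transcriptomes above all 8-cell, morula and blastocyst ones (18.5% of all such genes): NUP133, SEC13, NUP35, NUP93, NUP54, NUP88, RAE1, KPNA5, KPNA7 and RANBP1. Another 11 had the reverse order (all genes, 16.6%): KPNA4, KPNB1, IPO5, IPO7, IPO8, TNPO2, TNPO3, XPO1, XPO7, IPO13 and RAN. Of the early group 7 encode pore parts and of the late group none, and the number in each group was near the share of all genes. In polysomes 6 were higher early (SEC13, NUP35, NUP93, NUP88, NUP153 and KPNA7; all genes, 16.2%) and 6 late (KPNA3, IPO4, IPO5, XPO1, NXT2 and RAN; 11.6%), the same genes with and without the thin libraries. RANBP3L and NUP210 had a mean below 1 CPM over the 30 libraries.

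Among the importin alphas, KPNA7 was abundant up to the 2-cell stage and fell at the 8-cell stage, by less in polysomes than in the transcriptome. The GV transcriptomes held 1889, 1494 and 1456 CPM, the MII ones 1903, 2042 and 2771, the 2-cell ones 2139, 1904 and 1968 and the 8-cell ones 31.4, 23.4 and 66.9. The 9 earlier libraries all lay above the 3 of the 8-cell stage, a 49.4-fold fall (log2FC -5.63 ± 0.71, adjusted p = 5.87e-07). Morulae held 10.5, 3.58 and 5.17 CPM, lower again (log2FC -2.66 ± 0.63, adjusted p = 0.00549), and blastocysts 52.0, 4.35 and 12.8. The 1 high blastocyst library, A, carried a called rise at this step (log2FC 1.82 ± 0.63, adjusted p = 0.0381), which ended without the libraries lettered A (log2FC 0.98, adjusted p = 0.0834) and without the 3 libraries of few detected genes (adjusted p = 0.0532). The KPNA7 polysome pools of GV oocytes held 3133 and 3342 CPM, those of MII 3964 and 3362, those of the 2-cell stage 2561 and 2412 and those of the 8-cell stage 656 and 651. Later pools stood at 35.2 and 214 in morulae and 4.79 and 9.87 in blastocysts (morula to blastocyst, log2FC -4.09 ± 0.81, adjusted p = 0.00204). Its fall to the 8-cell stage was 3.80-fold there (log2FC -1.93 ± 0.74, adjusted p = 0.0344). The change in polysomes differed from that in the transcriptome by 3.70 ± 0.95 (adjusted p = 0.0128). Monosome pools of KPNA7, scaled apart, held 2934 and 1910 CPM at the 2-cell and 2596 and 2382 at the 8-cell stage. On that scale the 8-cell polysome pools held 597 and 580 CPM, a difference that was not called. The 8-cell level above the transcriptome was thus not particular to polysomes.

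The other maternal importin alphas took different courses. KPNA2, a widely used importin alpha of dividing cells, was at 2159.6, 2487 and 2499 CPM in GV transcriptomes, 606, 667 and 712 in MII and 1765, 1454 and 935 at the 2-cell stage. It fell at maturation (log2FC -1.85 ± 0.27, adjusted p = 1.55e-05) and rose to the 2-cell stage (log2FC 1.07 ± 0.26, adjusted p = 0.00703). The latter call ended under DESeq2, with DESeq2's size factors in edgeR and without the libraries lettered A (log2FC 1.0, 1.0 and 0.79, not above the fold limit). In polysomes it went from 881 and 765 to 100.1 and 211 CPM at maturation (log2FC -2.40 ± 0.33, adjusted p = 2.06e-04). It was lower in MII than in GV in every library of both kinds. KPNA5 was at 66.3, 80.0 and 111 CPM in MII, 71.1, 56.8 and 52.6 at the 2-cell and 8.65, 4.48 and 6.52 at the 8-cell stage (log2FC -3.20 ± 0.82, adjusted p = 0.0027). Its polysome level never passed 6.92 CPM, and in 8-cell polysomes it was at 0 in both pools, at least 101-fold lower than at the 2-cell stage if 3 counts over both pools are taken as the floor (adjusted p = 8.41e-05). KPNA6 rose from 4.01, 7.70 and 5.71 CPM in MII to 27.6, 22.8 and 22.3 at the 2-cell stage (log2FC 2.06 ± 0.48, adjusted p = 0.00452). In polysomes it rose from 8.03 and 10.1 to 29.7 and 38.6 CPM (log2FC 1.91 ± 0.58, adjusted p = 0.0391). The polysome call ended without the thin libraries (adjusted p = 0.0644) and with no filter on low counts (adjusted p = 0.0573).

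KPNA4 and KPNA1 rose at the 8-cell stage in the transcriptome, and KPNA4, KPNA1 and KPNA3 in polysomes. KPNA4 was at 0.989, 1.04 and 0.752 CPM in 2-cell and 30.8, 49.4 and 45.5 in 8-cell transcriptomes, a 44.9-fold rise (log2FC 5.49 ± 1.2, adjusted p = 6.08e-04) with every 8-cell library above every earlier one. Its polysome level was 0 and 4.69 CPM at the 8-cell stage and 14.9 and 3.91 in morulae. Only 1 of the 8-cell pools held it, and the called rise in 8-cell polysomes changed sign without the libraries lettered B. KPNA1 rose from 58.8, 47.9 and 39.9 to 114, 96.3 and 118 CPM at this step (log2FC 1.16 ± 0.42, adjusted p = 0.0249), and in polysomes from 12.8 and 2.89 to 40.2 and 30.7 (log2FC 2.17 ± 0.54, adjusted p = 0.00217). KPNA3 rose earlier in the transcriptome, from 41.5, 51.5 and 38.5 to 96.5, 141 and 188 CPM at maturation (log2FC 1.70 ± 0.39, adjusted p = 0.00273). It rose later in polysomes, from 7.98 and 7.04 at the 2-cell to 52.7 and 15.0 at the 8-cell stage (log2FC 2.17 ± 0.49, adjusted p = 9.01e-04). Its change at maturation differed between polysomes and transcriptome (-2.32 ± 0.61, adjusted p = 0.0141). Thus 4 importin alphas fell and 2 rose in the transcriptome from the 2-cell to the 8-cell stage (all genes, 23.5% and 26.6%), and 3 fell and 3 rose in polysomes (25.2% and 21%).

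**Figure D2:**
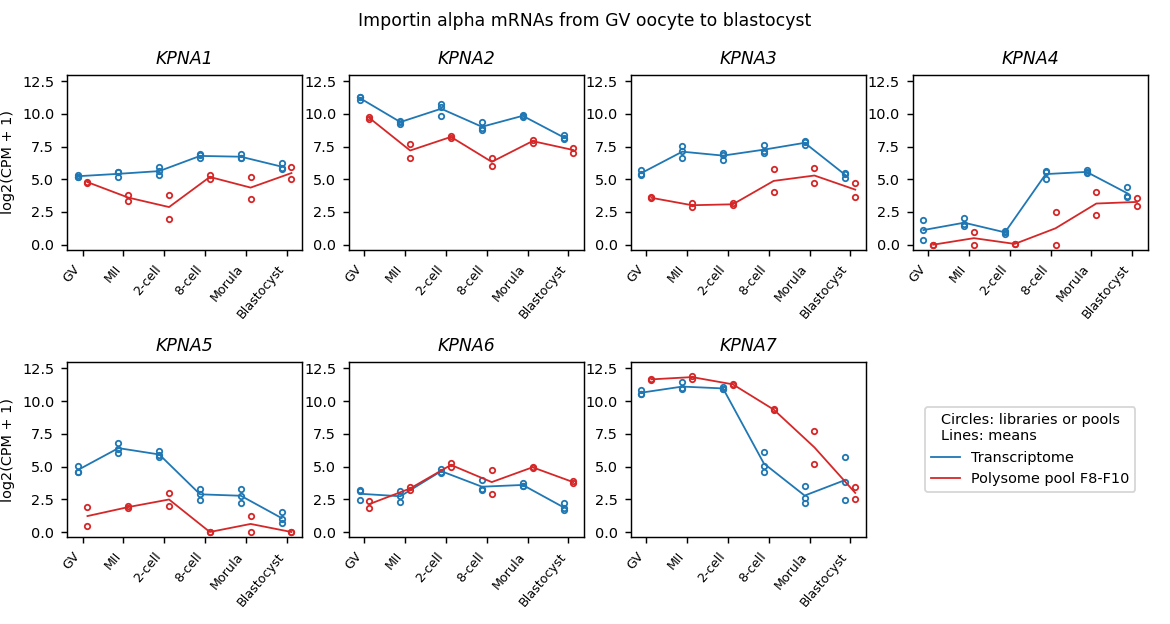
The 7 importin alpha mRNAs by stage, with log2(CPM + 1) on the vertical axis, the same scale in every panel. Circles are transcriptomes (blue, 3 per stage) and polysome pools (red, 2 per stage), and lines join the means. KPNA7 falls to 31.4, 23.4 and 66.9 CPM in 8-cell transcriptomes and to 656 and 651 CPM in 8-cell polysome pools. KPNA4 rises at the same step in transcriptomes. Monosome pools are not shown.

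Of the 11 importin beta genes of import, 7 rose in the transcriptome from the 2-cell to the 8-cell stage and none fell (all genes, 26.6% and 23.5%). IPO5, which imports ribosomal proteins and histones, was at 12.8, 13.6 and 9.85 CPM at the 2-cell stage and 273, 319 and 283 at the 8-cell stage (log2FC 4.59 ± 0.38, adjusted p = 1.03e-09). KPNB1, importin beta itself, rose from 10.1, 12.2 and 10.9 to 76.4, 44.3 and 35.7 CPM (log2FC 2.24 ± 0.77, adjusted p = 0.0187). TNPO2, a transportin, rose from 3.12, 2.88 and 5.11 to 10.4, 10.5 and 11.1 (log2FC 1.52 ± 0.45, adjusted p = 0.00691). None of these groups overlapped. RANBP6, a relative of IPO5, went from 4.26, 2.24 and 0.677 to 139, 129 and 95.6 CPM (log2FC 5.66 ± 0.87, adjusted p = 9.53e-06). IPO8, an importin beta relative that carries Argonaute and SMAD proteins, went from 0.0761, 0.0799 and 0.0752 to 99.9, 23.1 and 31.7 (adjusted p = 9.00e-07), the highest value being that of library A. The 2-cell libraries held 1 count of IPO8 each, so no fold is given. IPO7 and TNPO3 were the others that rose.

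IPO8 was called at all 5 steps of the transcriptome. It had already risen at maturation, from 0, 0.308 and 0.304 to 3.78, 4.06 and 2.97 CPM (log2FC 4.18 ± 0.98, adjusted p = 0.0036), and had fallen at the 2-cell stage (adjusted p = 0.00121). It then fell from the 8-cell stage to 8.21, 9.92 and 7.11 CPM in morulae (log2FC -2.61 ± 0.80, adjusted p = 0.0297) and rose to 37.9, 49.5 and 46.8 in blastocysts (log2FC 2.41 ± 0.80, adjusted p = 0.0317). Its 2-cell and 8-cell polysome pools were all at 0, and morula pools held 1.59 and 0.374 CPM, at least 20.1-fold above the floor of 3 counts over the 8-cell pools (adjusted p = 0.00147). RANBP6 rose at maturation from 1.75, 1.54 and 0.710 to 6.87, 6.29 and 5.47 CPM (log2FC 2.21 ± 0.78, adjusted p = 0.0496), a call that ended with no filter on low counts (adjusted p = 0.0683) and with fractions scaled to equal totals (adjusted p = 0.0508). In polysomes RANBP6 was at 0.205 and 0.407 CPM at the 8-cell stage and 5.20 and 3.85 in morulae (log2FC 3.83 ± 1.01, adjusted p = 0.00519).

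KPNB1 rose in polysomes at the morula, where the transcriptome change was not called. The GV pools held 4.67 and 1.49 CPM and the MII pools 0.252 and 0.107 (log2FC -4.05 ± 1.11, adjusted p = 0.0314). KPNB1 then stood at 3.47 and 2.31 at the 2-cell stage (log2FC 3.96 ± 1.11, adjusted p = 0.026), 0 and 4.23 at the 8-cell stage and 99.2 and 22.5 in morulae (log2FC 4.82 ± 1.06, adjusted p = 0.00128). Morula gradient A stood above B here, and the last rise was 3.94 (log2, adjusted p = 0.00316) without the thin libraries. IPO5 rose in polysomes already from 11.8 and 8.89 to 39.1 and 87.8 CPM at the 8-cell stage (log2FC 2.62 ± 0.43, adjusted p = 3.11e-05). IPO9 rose before it, from 12.4 and 9.15 in MII to 70.6 and 79.0 at the 2-cell stage (log2FC 2.80 ± 0.71, adjusted p = 0.014). IPO4, an importin of histones, fell in the transcriptome from 44.5, 34.6 and 31.7 in GV to 5.38, 6.69 and 5.47 in MII (log2FC -2.66 ± 0.37, adjusted p = 8.26e-06). It stood at 37.7, 32.6 and 19.0 CPM in morulae, called higher than at the 8-cell stage (log2FC 1.09 ± 0.35, adjusted p = 0.0337). The fold of that call did not pass the limit under DESeq2 (log2FC 0.96), with its size factors in edgeR (0.95) or without the libraries lettered A (0.85). At the blastocyst IPO11 fell from 69.7, 58.2 and 73.5 to 1.18, 3.73 and 3.0 CPM (log2FC -4.64 ± 1.15, adjusted p = 0.00434). TNPO2 rose there from 15.6, 11.4 and 19.2 to 40.6, 37.1 and 46.6 (log2FC 1.43 ± 0.44, adjusted p = 0.0209), so both directions occurred within the family.

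Of the 8 importin beta genes that export or carry cargo both ways, XPO1 was called at 5 of the 10 steps in the 2 kinds of library, and XPO4, XPO5, XPO7 and IPO13 at none. XPO1, the exporter of proteins with a leucine-rich signal, was at 22.6, 27.7 and 24.1 CPM in GV, 68.2, 51.5 and 41.9 in MII and 24.4, 29.3 and 20.5 in 2-cell transcriptomes. These steps were a rise (log2FC 1.12 ± 0.36, adjusted p = 0.0315) and a fall (log2FC -1.12 ± 0.36, adjusted p = 0.041). Both of these calls ended with no filter on low counts (adjusted p = 0.0755 and 0.108) and without the libraries lettered A (log2FC 0.85 and -0.91). In polysomes it went from 3.28 and 4.22 CPM in MII to 1.64 and 0.461 at the 2-cell stage (log2FC -1.82 ± 0.47, adjusted p = 0.0158). This call ended without the libraries lettered B (adjusted p = 0.164). XPO1 then rose to 132, 195 and 121 CPM at the 8-cell stage (log2FC 2.59 ± 0.38, adjusted p = 4.72e-06). In polysomes it rose to 7.55 and 7.29 (log2FC 2.81 ± 0.48, adjusted p = 5.56e-05), with all late pools above all early ones. XPOT, which exports tRNA, rose at maturation from 24.9, 19.0 and 21.5 to 72.2, 68.6 and 83.3 CPM (log2FC 1.78 ± 0.58, adjusted p = 0.0324). It was at 10.8 and 1.18 CPM in MII polysomes, below the 17.0 and 15.2 of GV. XPO6, the exporter of actin, rose in polysomes from 32.0 and 7.12 in MII to 105 and 54.3 CPM at the 2-cell stage (log2FC 2.03 ± 0.63, adjusted p = 0.0445), a call that ended with no filter (adjusted p = 0.0531). RANBP17 was at 2.59 and 1.5 CPM in MII polysomes and at 0 in both 2-cell pools, at least 46.7-fold lower (adjusted p = 0.00698), while 2-cell transcriptomes held 7.68, 6.79 and 6.47 CPM.

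RAN itself rose at the 8-cell stage in both kinds of library. It was at 410.3, 329.7 and 292 CPM in 2-cell, 2509, 2745 and 2002 in 8-cell and 3463, 3062 and 3220.4 in morula transcriptomes (2-cell to 8-cell, log2FC 2.81 ± 0.28, adjusted p = 1.61e-08). It fell to 946, 1054 and 1213 in blastocysts (log2FC -1.60 ± 0.27, adjusted p = 1.04e-04). Its polysome pools held 50.9 and 50.1 CPM at the 2-cell stage, 535 and 694 at the 8-cell stage (log2FC 3.61 ± 0.36, adjusted p = 4.02e-08), 2345 and 871 in morulae and 1219 and 1035 in blastocysts. Early and late pools did not overlap, and neither did the transcriptomes. RANGAP1, which stimulates RAN's GTP hydrolysis, rose from 1.80, 2.42 and 2.87 CPM in 8-cell transcriptomes to 10.8, 10.2 and 6.57 in morulae (log2FC 1.96 ± 0.64, adjusted p = 0.0378). This call ended with DESeq2's size factors in edgeR (adjusted p = 0.053). RANBP1, a cofactor of RANGAP1, went from 25.5 and 24.6 to 53.1 and 79.7 CPM in polysomes at maturation (log2FC 1.40 ± 0.38, adjusted p = 0.0286). The rise was not called without the thin libraries (adjusted p = 0.0548) or without the libraries lettered B (adjusted p = 0.0783).

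NUTF2, the importer of RAN, rose in polysomes at maturation from 202 and 214 to 569 and 382 CPM (log2FC 1.19 ± 0.34, adjusted p = 0.0378). The call ended with no filter (adjusted p = 0.0711) and without the libraries lettered A (adjusted p = 0.0784). Its transcriptome levels were 312, 434 and 354 CPM in GV and 221, 209 and 235 in MII, which was not called (log2FC -0.73 ± 0.27, adjusted p = 0.0671). RANBP3, a cofactor of XPO1, rose from 4.58, 5.27 and 3.69 CPM in MII to 11.9, 12.5 and 17.4 at the 2-cell stage (log2FC 1.63 ± 0.49, adjusted p = 0.0289). It fell from 6.25, 7.33 and 4.42 in morulae to 0.882, 0 and 0.200 in blastocysts (log2FC -4.22 ± 0.68, adjusted p = 7.14e-05). The blastocyst libraries, the shallowest, held a few counts of RANBP3 at most. RANBP3L was seen at a few CPM in 8-cell transcriptomes alone (1.46, 3.41 and 5.91 CPM, against at most 0.595 in the other 15). Its only polysome value above 0 was 0.0811 CPM in GV gradient B. Its fall to the morula (adjusted p = 0.0215) was not called under DESeq2 (adjusted p = 0.0683).

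Of the 3 messenger RNA export receptors, NXF1 carries the mRNA and NXT1 or NXT2 is its partner. NXT1 fell at maturation from 106, 134 and 96.7 to 42.8, 37.6 and 35.8 CPM (log2FC -1.53 ± 0.25, adjusted p = 6.74e-05). In polysomes it stood at 378 and 554 CPM in GV, 331 and 264 at the 8-cell stage and 695 and 511 in morulae. NXT2 was at 57.2, 46.6 and 75.8 CPM in GV transcriptomes but at 3.99 and 6.40 in GV polysomes, where it stayed below 10 CPM up to the 2-cell stage. Its morula pools differed, at 184 and 9.20 CPM, and the called rise from the 8-cell stage turned to -0.44 (log2) without the libraries lettered A and to -0.71 without the thin libraries. The rise of NXT1 at the same step (log2FC 1.02 ± 0.30, adjusted p = 0.0103) was also not called without the thin libraries (0.71, below the fold limit). In blastocyst transcriptomes NXF1 and NXT2 were lower than in morulae.

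The outer ring is a scaffold that also sits on kinetochores in mitosis. Of its 8 genes, NUP37, NUP43, NUP107 and NUP160 rose in the transcriptome from GV to MII and none fell (all genes, 6.61% and 10.5%). NUP37 was at 334, 514 and 469.8 CPM in GV, 961, 765 and 1092 in MII and 273, 245 and 200.2 at the 2-cell stage (GV to MII, log2FC 1.10 ± 0.37, adjusted p = 0.0392). The second step was a fall (log2FC -1.97 ± 0.38, adjusted p = 8.55e-04). The rise of NUP37 at maturation was not called with no filter (adjusted p = 0.0661) or without the libraries lettered A (log2FC 0.92). NUP107 rose from 302, 328 and 311 to 718, 924 and 1178 CPM (log2FC 1.58 ± 0.30, adjusted p = 4.03e-04). NUP43 rose from 109, 94.1 and 131 to 211, 266 and 327 CPM (log2FC 1.26 ± 0.37, adjusted p = 0.017) and NUP160 from 57.0, 48.3 and 52.4 to 97.0, 127 and 174 (log2FC 1.34 ± 0.42, adjusted p = 0.0269). All 4 had every MII library above every GV library. From morula to blastocyst NUP37, NUP43, NUP107 and SEC13 fell, with NUP37 going from 178, 205 and 222 to 37.9, 23.4 and 42.0 CPM (log2FC -2.55 ± 0.39, adjusted p = 3.96e-05).

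In polysomes none of the 8 rose at maturation (all genes, 3.03%). NUP160 fell there from 101 and 111 to 18 and 45.0 CPM at maturation (log2FC -1.75 ± 0.52, adjusted p = 0.0484) and was not called without the thin libraries (adjusted p = 0.0925). NUP107 was at 170.2 and 166 CPM in GV and 124 and 85.2 in MII polysomes. NUP85 rose later in the transcriptome, from 30.8, 34.1 and 27.4 CPM at the 8-cell stage to 72.7, 54.0 and 63.9 in morulae (log2FC 1.05 ± 0.25, adjusted p = 0.00535). That call ended under DESeq2, with its size factors in edgeR and without the libraries lettered A (log2FC 0.92, 0.91 and 0.94).

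Of the 5 inner ring genes, NUP35 and NUP155 rose at maturation (all genes, 6.61%). NUP35, a scaffold nucleoporin, was at 1274, 1573 and 1462 CPM in GV, 3070.3, 2895 and 4306 in MII, 1419.7, 1537 and 1192 at the 2-cell and 211, 274 and 241 at the 8-cell stage. Later embryos held 202, 195 and 222 in morulae and 25.0, 12.9 and 12.8 in blastocysts. It rose at maturation (log2FC 1.25 ± 0.24, adjusted p = 5.11e-04) and fell at the 2-cell stage (log2FC -1.31 ± 0.24, adjusted p = 6.09e-04). It fell further at the 8-cell stage (log2FC -2.51 ± 0.25, adjusted p = 1.86e-08) and again at the blastocyst (log2FC -3.62 ± 0.27, adjusted p = 5.52e-09). NUP155 rose from 199, 205 and 197 to 464, 563 and 639.8 CPM at maturation (log2FC 1.47 ± 0.27, adjusted p = 3.01e-04). It was back at 177, 194 and 137 at the 2-cell stage (log2FC -1.72 ± 0.27, adjusted p = 1.30e-04). In polysomes NUP155 stood at 77.8 and 84.9 CPM at the 8-cell stage, 9.88 and 14.8 in morulae (log2FC -2.72 ± 0.35, adjusted p = 4.35e-06) and 21.5 and 37.4 in blastocysts (log2FC 1.25 ± 0.33, adjusted p = 0.015). Both changes differed from those of the transcriptome (adjusted p = 5.79e-04 and 2.40e-04). NUP205, another scaffold subunit of the inner ring, went from 34.3 and 52.2 to 9.45 and 3.51 CPM (log2FC -2.74 ± 0.41, adjusted p = 2.74e-05). It then went to 19.7 and 24.9 CPM (log2FC 1.79 ± 0.40, adjusted p = 0.00499), which was not called without the libraries lettered B (adjusted p = 0.0594). NUP93 fell at the 8-cell stage in transcriptomes, from 103, 99.9 and 106 to 41.6, 41.4 and 35.6 CPM (log2FC -1.38 ± 0.38, adjusted p = 0.00401).

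In the central channel NUP62 and NUP54, partners of 1 subcomplex, moved in opposite directions in the transcriptome from morula to blastocyst. NUP54 was at 445, 427 and 507 CPM in GV and 969, 1117 and 1687 in MII (log2FC 1.45 ± 0.30, adjusted p = 8.56e-04). It was at 249, 195 and 252 in morulae and 90.0, 98.1 and 101 in blastocysts (log2FC -1.27 ± 0.30, adjusted p = 0.00276). NUP62 rose over the last step from 43.0, 27.2 and 23.3 to 83.8, 94.7 and 91.4 CPM (log2FC 1.53 ± 0.35, adjusted p = 0.00203). NUP58, the other member of the subcomplex, fell at the blastocyst. Of the membrane anchors, NDC1 fell from 45.2, 32.8 and 50.7 to 6.76, 6.01 and 6.80 CPM at the blastocyst (log2FC -2.72 ± 0.97, adjusted p = 0.0442). NUP210 had transcriptome values of at most 0.522 CPM in all 18 libraries but reached 9.41 and 4.08 CPM in GV polysomes. NUP210 was at 0 in both 8-cell pools, at least 51.3-fold below the 3.92 and 1.11 CPM of 2-cell pools (adjusted p = 0.00231).

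On the cytoplasmic face NUP88 fell at the 8-cell stage and AAAS changed in opposite directions at maturation. NUP88, which anchors the export platform with NUP214, was at 869.7, 782 and 841 CPM in GV, 1552, 1971 and 2606 in MII, 1041, 1296 and 1216 at the 2-cell stage and 150.0, 159 and 179 at the 8-cell stage (2-cell to 8-cell, log2FC -2.86 ± 0.26, adjusted p = 4.39e-09). Its polysome level was 138 and 130.2 CPM in morulae and 46.4 and 19.8 in blastocysts (log2FC -2.02 ± 0.31, adjusted p = 2.28e-04). That call ended without the thin libraries (log2FC -1.03, adjusted p = 0.294). AAAS (aladin, held in the pore by NDC1) went from 79.4, 53.5 and 68.5 to 26.7, 32.4 and 27.4 CPM at maturation in the transcriptome (log2FC -1.22 ± 0.32, adjusted p = 0.00839). In polysomes it went from 328 and 396 to 1298 and 860.2 CPM (log2FC 1.58 ± 0.39, adjusted p = 0.0183), the opposite direction, with no overlap in either. It fell to 137 and 100.3 CPM in 2-cell polysomes (log2FC -3.18 ± 0.42, adjusted p = 6.20e-05). NUP98, which also has roles off the pore, fell in polysomes from 212 and 173 at the 8-cell stage to 28.8 and 37.7 CPM in morulae (log2FC -2.53 ± 0.43, adjusted p = 9.33e-05). RANBP2, the filament that binds RAN and carries SUMO ligase activity, rose from 101, 95.5 and 61.4 to 248, 383 and 399.7 CPM at the 8-cell stage (log2FC 2.00 ± 0.53, adjusted p = 0.00319).

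In the nuclear basket NUP153 rose at maturation from 109.6, 121 and 89.1 to 255, 308 and 379 CPM (log2FC 1.56 ± 0.26, adjusted p = 8.31e-05). It fell at the 8-cell stage to 91.4, 101 and 97.9 (log2FC -1.66 ± 0.26, adjusted p = 1.12e-05) and at the blastocyst to 30.9, 30.7 and 27.6 (log2FC -1.40 ± 0.26, adjusted p = 3.21e-04). Its polysome pools held 178 and 112 CPM at the 2-cell and 17.1 and 19.1 at the 8-cell stage (log2FC -3.0 ± 0.33, adjusted p = 1.92e-07). Blastocyst pools held 8.66 and 8.26 CPM (log2FC -1.96 ± 0.32, adjusted p = 4.05e-04). The early pools all stood above the late ones. NUP50, its partner, fell in blastocyst transcriptomes and rose in 8-cell polysomes. RANBP9 and RANBP10, scaffolds of a ubiquitin ligase that share a name with the Ran-binding proteins but are no transport receptors, were called at no step in either kind of library.

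Set against the transcriptome of the same stage, transport mRNAs were lower in polysomes more often than higher at 5 of the 6 stages. The counts were nearly equal in GV oocytes. In GV oocytes 15 were higher and 16 lower (all genes, 22.2% and 17.7%), in MII 18 and 30 (30.8% and 26.7%), and at the 2-cell stage 16 and 24 (29.1% and 21.9%). In 8-cell embryos 18 were higher and 28 lower (28% and 31%), in morulae 12 and 24 (26.5% and 25.2%), and in blastocysts 15 and 13 (20% and 20.1%). The median member stood at -1.34 (log2, polysomes minus transcriptome) in MII, -0.83 at the 2-cell stage and -0.77 in morulae, against 0, 0.18 and 0 over all genes. In GV oocytes and blastocysts it was -0.0818 and -0.11, near the 0 and -0.0773 of all genes. At the 8-cell stage it was -0.39 against -0.26 over all genes. Without the libraries lettered C, 8 were higher and 14 lower in GV, 12 and 25 in MII, and 9 and 8 in blastocysts. Without those lettered A blastocysts had 18 higher and 23 lower, and without those lettered B 15 and 17, so which count was larger there turned. Without the 3 thin libraries 16 were higher and 29 lower in MII, and 13 and 24 in morulae. Over the 6 stages, 22 members were higher at 1 stage or more and never lower, 35 lower and never higher, and 5 were called both ways. This tally over stages was not made for all genes, so it is not read as a trait of the members. TNPO1, TNPO3, XPO5 and XPO7 were called at no stage.

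**Figure D3:**
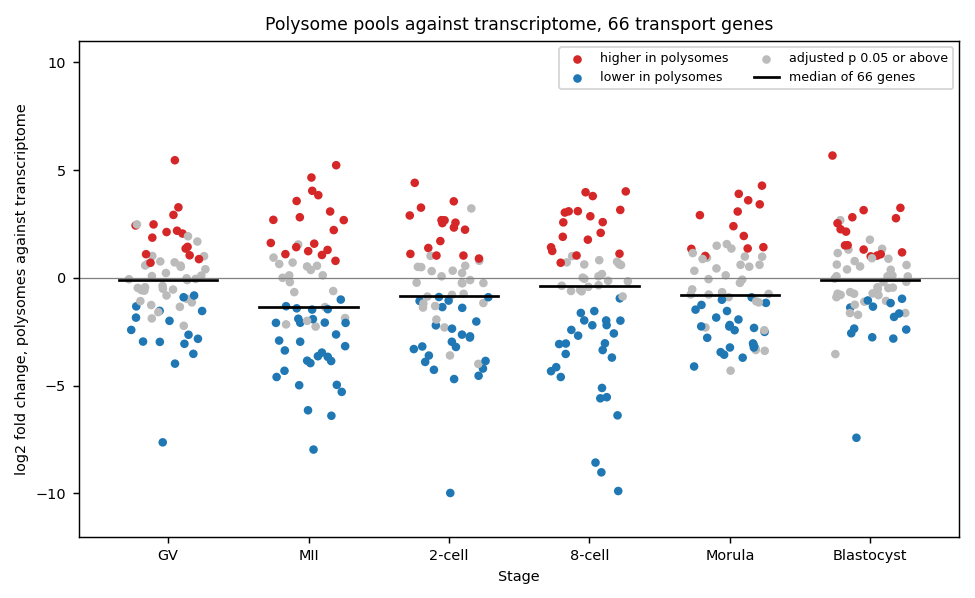
Each point is 1 of the 66 genes at 1 stage, with the fitted log2 fold change of polysome pools (n = 2) against transcriptomes (n = 3) on the vertical axis, and points are spread sideways only to be seen. IPO8 at the 8-cell stage lies below the lower edge. Red points are higher and blue points lower in polysomes at an adjusted p below 0.05, and the black line is the median, which lies lowest in MII (-1.34). Fitted values of genes at 0 in both pools depend on the prior count and are no bound.

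The members called higher in polysomes at all 6 stages were AAAS, NUP62, NXT1, RANBP3, SEC13 and XPO6. Monosome pools, scaled apart from the transcriptomes, could also stand far above them. NUP62 held 1380 and 1240 CPM in 8-cell monosome pools against 21.3, 23.7 and 18.5 in transcriptomes. AAAS held 543 and 496 CPM in MII monosome pools. These calls thus set gradient RNA against whole samples and do not by themselves show loading on polysomes. NUP62, the FG nucleoporin of the central channel, stood far above its transcriptomes at every stage up to the morula. In 8-cell embryos its polysome pools held 340 and 246 CPM. In morulae they held 415 and 340 CPM, against 43.0, 27.2 and 23.3 in transcriptomes. Transcriptomes held 11.6, 6.79 and 4.52 CPM and polysomes 203 and 182 in MII (log2FC 4.65 ± 0.41, adjusted p = 1.05e-09). It stood at 10.3, 13.2 and 20.7 against 232 and 393 CPM at the 2-cell stage (log2FC 4.41 ± 0.40, adjusted p = 4.81e-09). In blastocysts it was 83.8, 94.7 and 91.4 against 229 and 139.6 CPM (log2FC 1.03 ± 0.37, adjusted p = 0.0292). This last call ended with DESeq2's size factors in edgeR (adjusted p = 0.0555). AAAS stood at 26.7, 32.4 and 27.4 against 1298 and 860.2 CPM in MII (log2FC 5.23 ± 0.39, adjusted p = 7.16e-11). NXT1 stood at 35.9, 35.1 and 29.5 against 331 and 264 CPM at the 8-cell stage (log2FC 3.15 ± 0.28, adjusted p = 2.13e-09). In every stage the polysome pools of these 3 genes lay above all transcriptomes. RANBP3 was at 0.882, 0 and 0.200 against 21.1 and 11.7 CPM in blastocysts (log2FC 5.67 ± 0.71, adjusted p = 9.73e-07). Those transcriptomes held a few counts of it at most. XPO6 was at 6.53, 4.65 and 3.56 against 67.3 and 79.4 CPM in morulae (log2FC 3.90 ± 0.58, adjusted p = 7.12e-06). SEC13, a subunit shared with the coat of transport vesicles, differed by between 0.70 in GV oocytes (adjusted p = 0.0215) and 2.14 in blastocysts (log2). Its GV call ended with DESeq2's size factors in edgeR (adjusted p = 0.0541).

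Those called lower at all 6 stages were KPNA2, KPNA5, NUP43, NUP54, NUP107, RANBP2 and XPO1. XPO1 stood at 24.4, 29.3 and 20.5 CPM in 2-cell transcriptomes and 1.64 and 0.461 in polysomes (log2FC -4.54 ± 0.50, adjusted p = 7.67e-08). It stood at 161, 207 and 241 against 26.8 and 33.2 CPM in blastocysts (log2FC -2.76 ± 0.45, adjusted p = 3.04e-05). RANBP2 was at 248, 383 and 399.7 against 13.9 and 53.4 CPM at the 8-cell stage (log2FC -3.35 ± 0.66, adjusted p = 1.72e-04). It was at 184, 225 and 221 against 24.5 and 35.1 CPM in blastocysts (log2FC -2.82 ± 0.65, adjusted p = 0.00129). The transcriptomes of both genes lay above all polysome pools of the same stage throughout. KPNA2 differed by between -2.68 at the 8-cell stage and -0.97 in blastocysts, NUP43 by between -3.37 in MII and -1.54 at the 8-cell stage (all log2). NUP54 differed by between -2.91 in MII and -0.90 in morulae, and NUP107 by between -3.17 in MII and -0.90 in GV (all log2). The GV call of NUP107 (adjusted p = 0.0359) and the morula call of NUP54 (adjusted p = 0.0266) both ended with no filter (adjusted p = 0.0709 and 0.0559). KPNA5 was at 0 in both blastocyst pools against 0.588, 1.87 and 1.0 CPM in transcriptomes, at least 17.8-fold lower (adjusted p = 0.00204), and at least 134-fold lower at the 8-cell stage (adjusted p = 2.59e-05).

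Of the 11 importin beta genes of import, 5 were lower and 1 higher in MII polysomes (all genes, 26.7% and 30.8%), and 6 lower and 3 higher at the 8-cell stage (31% and 28%). In MII KPNB1 was at 12.4, 14.9 and 12.3 CPM in transcriptomes and 0.252 and 0.107 in polysomes (log2FC -6.14 ± 1.17, adjusted p = 9.40e-05). RANBP6 was at 6.87, 6.29 and 5.47 against 0.0360 and 0 (adjusted p = 2.12e-05, with 1 count in both pools). At the 8-cell stage IPO8 stood at 0 in both pools, at least 1053-fold below its transcriptomes (adjusted p = 1.22e-06). RANBP6 reached 0.205 and 0.407 CPM there against 139, 129 and 95.6 (log2FC -8.57 ± 1.21, adjusted p = 2.43e-06). By the blastocyst IPO8 alone of the 11 was called lower, at 6.31 and 8.77 against 37.9, 49.5 and 46.8 CPM (log2FC -2.57 ± 0.94, adjusted p = 0.0333). TNPO2 went the other way, at 50.9 and 36.1 CPM in 2-cell polysomes against 3.12, 2.88 and 5.11 in transcriptomes (log2FC 3.55 ± 0.50, adjusted p = 2.74e-06), and was higher in polysomes at every stage but the blastocyst.

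Other members also stood out at single stages. KPNA7 was higher in polysomes at the 8-cell stage (log2FC 4.01 ± 0.68, adjusted p = 2.92e-05) and in morulae (log2FC 4.28 ± 0.70, adjusted p = 2.29e-05), with no overlap in either. At the 8-cell stage its monosome pools stood above its polysome pools. KPNA4 was at 0 in both GV pools against 1.14, 2.67 and 0.304 CPM, at least 35-fold lower (adjusted p = 0.00288). NXT2 was lower in GV polysomes (log2FC -3.52 ± 0.74, adjusted p = 4.98e-04). RANBP3L was lower in 8-cell ones, at 0 in both pools against 1.46, 3.41 and 5.91 CPM (at least 73.4-fold, adjusted p = 0.00185). RANBP17 was at 0 in both 2-cell pools, at least 159-fold lower than in transcriptomes (adjusted p = 1.25e-04). It was also lower in morulae (log2FC -3.56 ± 1.25, adjusted p = 0.0207), as was NDC1 at 0.0482 and 6.47 against 45.2, 32.8 and 50.7 CPM (log2FC -3.70 ± 1.18, adjusted p = 0.0117). In morula polysomes RANBP17 was at 0 and 2.27 CPM, so that for both genes gradient B held nearly all of the signal.

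The 5 members called both ways were NUTF2, NUP210, IPO4, RAE1 and NUP205. NUTF2 was lower in GV polysomes, at 202 and 214 against 312, 434 and 354 CPM (log2FC -0.82 ± 0.31, adjusted p = 0.0401). It was higher at 4 stages, up to 1003 and 1159.7 against 196, 136 and 144 CPM in blastocysts (log2FC 2.77 ± 0.31, adjusted p = 2.20e-07). Its GV call ended with no filter (adjusted p = 0.0794). RAE1, an mRNA export factor bound to NUP98, was lower in MII (log2FC -1.01 ± 0.28, adjusted p = 0.00395) and at the 2-cell stage (log2FC -0.89 ± 0.28, adjusted p = 0.0107). It was higher in blastocysts, at 233 and 156 against 78.5, 59.7 and 66.2 CPM (log2FC 1.52 ± 0.27, adjusted p = 9.75e-05). IPO4 was lower in GV (log2FC -1.32 ± 0.40, adjusted p = 0.0102) and higher at the 8-cell stage (log2FC 1.25 ± 0.38, adjusted p = 0.0069). NUP205 was higher in GV (log2FC 0.87 ± 0.35, adjusted p = 0.0489). That call ended without the thin libraries (adjusted p = 0.072), with no filter (adjusted p = 0.0535) and without the libraries lettered B (adjusted p = 0.0815). NUP205 was lower at the 2-cell stage, in morulae (log2FC -3.45 ± 0.41, adjusted p = 3.76e-07) and in blastocysts. NUP210 was higher in GV (log2FC 5.46 ± 1.49, adjusted p = 0.00546) and at the 2-cell stage (log2FC 3.26 ± 1.36, adjusted p = 0.0497), the latter not under DESeq2 (adjusted p = 0.0549) or without the thin libraries (adjusted p = 0.0512). It was lower at the 8-cell stage (adjusted p = 0.0248), all at transcriptome levels below 1 CPM.

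The change of an mRNA in polysomes was then compared with its own change in the transcriptome, as an interaction term in the same model. From GV to MII this difference was called for 15 members (all genes, 10.6%), 5 with the higher change in polysomes and 10 with the lower. NUP160 and AAAS changed in opposite directions in the 2 kinds of library. NUP160 rose in the transcriptome and fell in polysomes (difference -3.09 ± 0.67, adjusted p = 0.00336), and AAAS did the reverse (2.80 ± 0.51, adjusted p = 6.42e-04). The difference for NUP107 was -2.27 ± 0.47 (adjusted p = 0.00216), that for XPOT -3.20 ± 0.92 (adjusted p = 0.0243) and that for NUTF2 1.92 ± 0.44 (adjusted p = 0.00479). Without the libraries lettered C the difference was called for 2 members, without those lettered A for 34 and without those lettered B for 23. NUP85, IPO4 and IPO13 also changed more upward in polysomes, and NUP155, NUP88, NUP153, KPNA3, KPNB1, IPO8 and RANBP6 more downward. From MII to the 2-cell stage the difference was called for 2 members, AAAS (-2.67 ± 0.51, adjusted p = 0.00993) and RANBP17, against 1.81% of all genes.

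From the 2-cell to the 8-cell stage 8 members differed (all genes, 12.2%). KPNA7, NUP88 (1.68 ± 0.39, adjusted p = 0.00653) and NUP54 (1.41 ± 0.46, adjusted p = 0.0465) had the higher change in polysomes. IPO5 (-1.98 ± 0.53, adjusted p = 0.0156) rose less in polysomes and NUP153 (-1.34 ± 0.40, adjusted p = 0.0292) fell more. IPO7, KPNA5 and NUP210 also had the lower change in polysomes. Without the libraries lettered C 1 differed, without A 20 and without B 28. From the 8-cell stage to the morula 8 differed (all genes, 12.5%). KPNB1 (4.07 ± 1.22, adjusted p = 0.03), RANBP6 (4.46 ± 1.22, adjusted p = 0.0176), IPO7, IPO8 and KPNA5 had the higher change in polysomes. NUP155, NUP205 (-3.03 ± 0.51, adjusted p = 4.58e-04) and NUP98 had the lower. Without C 3 differed, without A 15, without B 26 and without the thin libraries 9. IPO8 was called in opposite directions at this step, down in the transcriptome and up in polysomes. From morula to blastocyst 15 differed (all genes, 12.3%), 10 with the higher change in polysomes, RAE1 (1.19 ± 0.39, adjusted p = 0.0457) among them, and 5 with the lower, NUP62 (-2.57 ± 0.54, adjusted p = 0.00358) among them. Without C 4 differed, without A 37 and without B 26. NUP155 fell in the transcriptome and rose in polysomes, and KPNA7 did the reverse, with the transcriptome rise resting on library A.

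**Figure D4:**
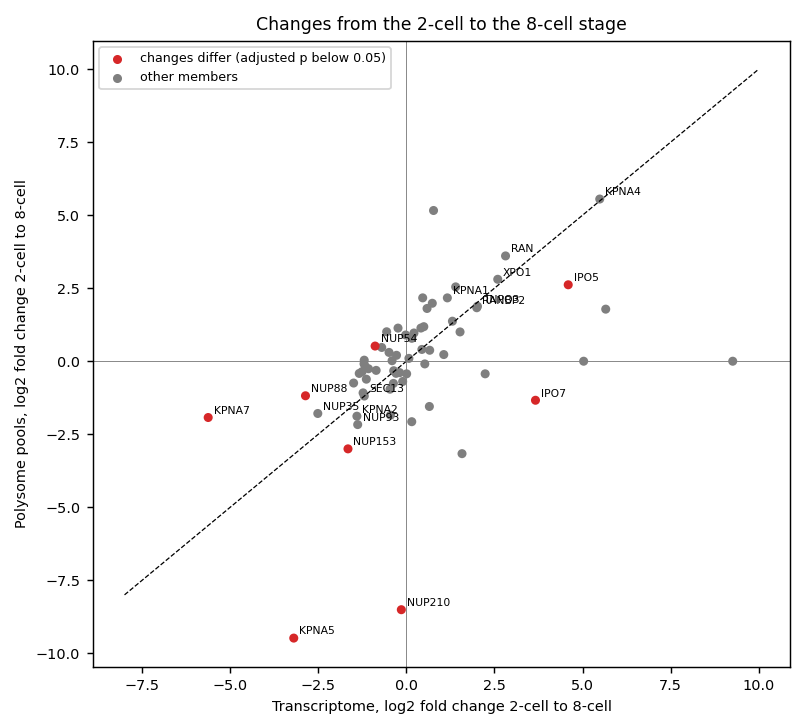
Fitted log2 fold change from the 2-cell to the 8-cell stage in the transcriptome (horizontal, 3 libraries per stage) and in polysome pools (vertical, 2 per stage) for the 66 genes, with the dashed line where both are equal. Red points are the 8 genes whose 2 changes differ at an adjusted p below 0.05, and names mark these and the genes called in both. KPNA7 lies far to the left of the line and IPO5 and IPO7 to its right. KPNA5 and NUP210, at the bottom, are at 0 in both 8-cell pools, and the fitted values of genes with a group at 0 depend on the prior count and are no bound.

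Within the gradient, polysome fractions (F8 to F10) were compared with monosome fractions (F3 to F5) of the same stage in a model of the 24 pools, scaled on their own. In it 65 members could be tested (RANBP3L did not pass the filter) among 14873 genes. Few members differed, most of them at the 8-cell stage, where the shares of all genes given here were largest too. There 3 were higher and 5 lower in polysome fractions (all genes, 4.55% and 4.8%). In GV oocytes and blastocysts 1 member each was lower (all genes, 0.182% and 0.632%), and in morulae 1 was higher (0.699%). In MII and 2-cell samples no member was called by edgeR (all genes in either direction, 0.437% and 0%), with 11 and 10 at an unadjusted p below 0.05.

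At the 8-cell stage NUP43 held 0.222 and 3.35 CPM in monosome pools and 46.7 and 65.2 in polysome pools (log2FC 4.97 ± 1.25, adjusted p = 0.0222). RAN held 169 and 119 and 487 and 618 CPM (log2FC 1.94 ± 0.45, adjusted p = 0.0169). NUP160 held 13.4 and 7.01 and 23.0 and 124 CPM (log2FC 2.85 ± 0.82, adjusted p = 0.0379). RANBP1 was lower in polysome pools, at 39.2 and 62.7 CPM against 381 and 274 (log2FC -2.68 ± 0.53, adjusted p = 0.00882). NUP93 was lower too, at 16.6 and 90.1 against 419 and 547 (log2FC -3.18 ± 0.62, adjusted p = 0.00798). NUP62 stood at 309.7 and 219 against 1379.7 and 1240.1 CPM (log2FC -2.31 ± 0.45, adjusted p = 0.00802). KPNA6 stood at 5.79 and 23.0 against 71.3 and 81.4 CPM (log2FC -2.41 ± 0.67, adjusted p = 0.0327). NUP210 was at 0 in both polysome pools and at 3.43 and 0.287 CPM in monosome pools, at least 42.3-fold lower (adjusted p = 0.0403). None of these groups overlapped, yet all 8 calls ended without gradient A of that stage, and those of NUP62, RAN, NUP160 and NUP210 also without gradient B. With the gradient as a block, which pairs the pools of 1 gradient, NUP160 and NUP210 were not called.

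In GV oocytes RANBP1 was again lower in polysome pools, at 23.5 and 22.7 CPM against 159.7 and 139.6 (log2FC -2.69 ± 0.53, adjusted p = 0.033), and not called without either gradient. In blastocysts KPNA7 was at 4.63 and 9.71 CPM against 151 and 124 (log2FC -4.26 ± 0.71, adjusted p = 0.00612), not called without gradient A. In morulae XPO4 was at 90.1 and 32.7 CPM against 3.32 and 10.0 (log2FC 3.19 ± 0.76, adjusted p = 0.0444). It was not called without gradient A, with the gradient as a block or without the thin libraries.

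**Figure D5:**
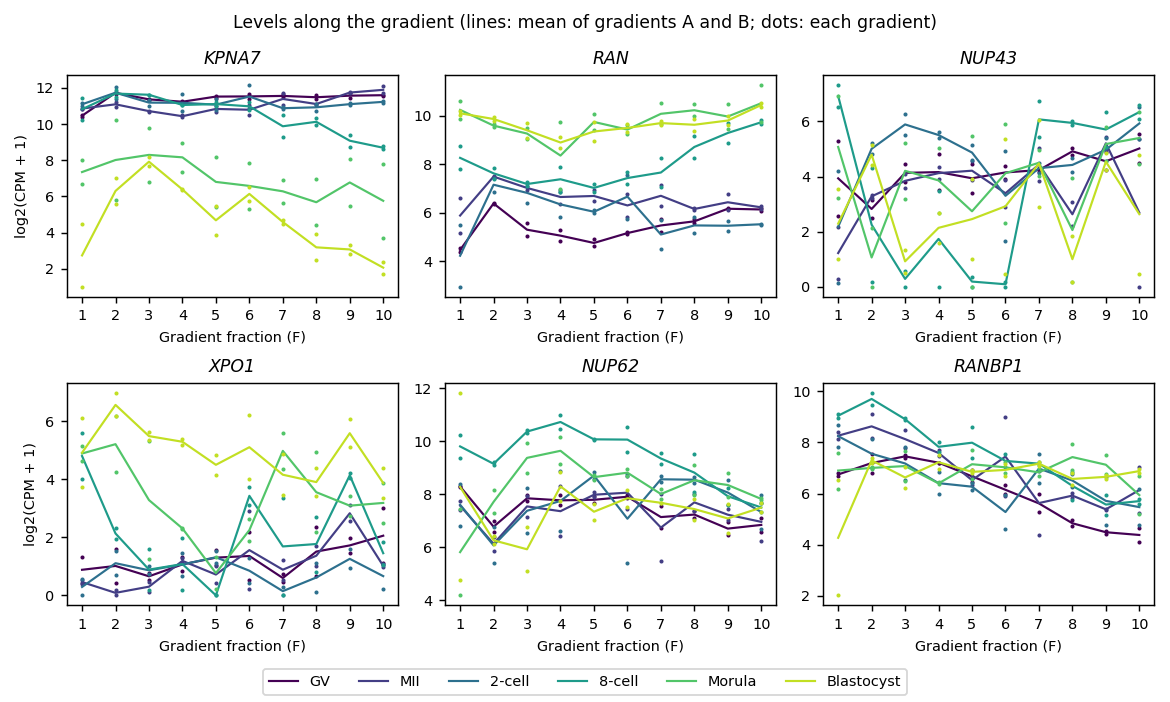
Levels of 6 members along the gradient, with log2(CPM + 1) against fraction number, on each panel's own vertical scale. Dots are gradients A and B, lines their means, and colours the 6 stages. KPNA7 is high in all fractions up to the 2-cell stage and declines toward F10 in 8-cell embryos and blastocysts, RANBP1 declines along the gradient in GV oocytes and 8-cell embryos, and in 8-cell embryos RAN rises toward F10 and NUP43 from F7 on.

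Other genes of the same pathways were counted from 3 lists. Of 13 further transport factors, 3 rose and 2 fell at maturation in the transcriptome (all genes, 6.61% and 10.5%), 3 rose and 3 fell at the 8-cell stage (26.6% and 23.5%), and 1 rose and 5 fell at the blastocyst (10.2% and 11.4%). CSE1L, which returns importin alpha to the cytoplasm, fell over that last step, from 389 ± 19.2 (SD, n = 3) to 142 ± 20.5 (SD, n = 3) CPM (log2FC -1.45 ± 0.27, adjusted p = 3.78e-04). It was lower in polysomes than in the transcriptome at all 6 stages. RCC1, the nucleotide exchange factor of RAN, was higher in polysomes at all 6, for example at 17.3 ± 11.1 (SD, n = 2) against 3.20 ± 1.54 (SD, n = 3) CPM at the 8-cell stage (log2FC 2.43 ± 0.54, adjusted p = 5.26e-04). Of 18 mRNA export cofactors, 4 rose and 4 fell at maturation and 1 rose and 8 fell at the blastocyst, against the same shares of all genes. In polysomes 9 of these cofactors rose and 1 fell from the 8-cell stage to the morula (all genes, 18.5% and 17.7%). Of 16 genes of the lamina and envelope, none rose and 2 fell at maturation in the transcriptome, and 4 rose and 4 fell at the 8-cell stage, again against those shares. SUN1, TMPO, TOR1A and SUN2 fell there, and LMNA, LBR, SYNE1 and LEMD2 rose.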

How the data were processed

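Bovine oocytes and embryos at 6 stages gave 120 gradient fraction libraries and 18 transcriptomes, made with a poly(A)-primed Smart-seq kit. The authors deposited expected counts per gene symbol, estimated with Salmon (version not given in the sources used here), not normalized, of which 11.7% of the values were not whole. The labels name the build UMD3.1 and the study's methods ARS-UCD1.2, so no coordinates are given. All columns were matched to samples by title (0 unmatched), and of 78 replicate pairs compared 0 were identical.

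Counts were rounded. F8 to F10 (polysomes) and F3 to F5 (monosomes) were summed per gradient. Pools of F8 to F10 and transcriptomes (30 libraries, 14612 genes) and the 24 pools of both classes (14873 genes) were fitted separately in edgeR 4.0.16 (R 4.3.3, limma 3.58.1) with filterByExpr, TMM scaling, quasi-likelihood tests and Benjamini-Hochberg adjustment. The standard error was |log2 fold change| divided by the square root of F. Calls between stages needed an adjusted p below 0.05 and a fold above 2, all others the adjusted p alone. A group at 0 was set to a floor of 3 counts over the group, which covers counting error only. Pools held 22543737 to 39380638 counts. Summaries and plots used Python 3.11.15, numpy 2.4.6, pandas 2.3.3 and matplotlib 3.10.9, and the fits were tested on simulated data.

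The members and gene lists were chosen with earlier results of these data known. Genes named with values are the 7 importin alphas, those with the largest called changes in each comparison and direction, those called the same way at all 6 stages and those called both ways. Genes of the pathway lists, XPO4, XPO5, XPO7 and IPO13, and those given only as called, were named after their values were seen. Within a stage the A minus B differences of polysome pools and of transcriptomes were hardly correlated (-0.0629 to 0.0163). Each rests on 1 difference per stage, so it cannot decide whether a letter stands for a shared batch. The study took transcriptomes and gradients from the same batches, and pools of 1 gradient share their lysate. Whether the letters pair samples of different stages was not tested. Alternatives were DESeq2 1.42.0, its size factors in edgeR, the likelihood ratio test, no filter, fractions scaled to equal totals, a replicate block, a slope over F3 to F10 and leaving out each letter. Pools without the 3 thin libraries, gradients left out stage by stage and the alternatives for the interaction counts were chosen after seeing the data.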

Additional observations from a re-analysis of the deposited data

Results flagged for a closer look

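The change of a transport mRNA in polysomes differed from its change in the transcriptome, by the interaction test in edgeR's quasi-likelihood model, for 15 of the 66 members from GV to MII (10.6% of all genes), 2 from MII to the 2-cell stage (1.81%), 8 from the 2-cell to the 8-cell stage (12.2%), 8 from the 8-cell stage to the morula (12.5%) and 15 from morula to blastocyst (12.3%). Called in opposite directions in the 2 kinds of library were NUP160 and AAAS at maturation, IPO8 at the morula, and NUP155 and KPNA7 at the blastocyst. The NUP160 fall in polysomes was not called without the thin libraries, and the KPNA7 rise in the transcriptome rested on library A. IPO8 reached only 1.59 and 0.374 CPM in morula polysomes.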

How the results depend on the processing

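With 2 gradients and 3 transcriptomes per stage, counts of members were set mainly by which libraries entered. Leaving out a letter leaves single polysome pools, which are assumed to vary like the other groups, and the cause of the shifts was not tested. Of the counts of members under all alternatives, 379 were within 1.5 times the reported count, 64 were higher and 47 lower. Of the values for single genes, 3239 kept direction and call, 334 lost the call and 3 changed sign: KPNA4 in polysomes from the 2-cell to the 8-cell stage without replicate B (range without 1 letter -3.03 to 6.95, fitted values that depend on the prior count), and NXT2 in polysomes from the 8-cell stage to the morula without replicate A (range without 1 letter -0.44 to 2.76) and without the 3 thin libraries (-0.71). The letters could not be left out at all stages at once in the comparison of F8-F10 with F3-F5, so that gradients were left out stage by stage.

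Under DESeq2, 1 member rose in the transcriptome from the 8-cell stage to the morula, 6 rose and 6 fell in polysomes from GV to MII, 6 rose in polysomes from morula to blastocyst, and the difference of changes was called for 23 from GV to MII and 4 from MII to the 2-cell stage. In F8-F10 against F3-F5 DESeq2 called 1 higher and 3 lower in MII, 1 lower at the 2-cell stage, 7 higher and 9 lower at the 8-cell stage, 3 higher and 1 lower in morulae, and 2 higher and 4 lower in blastocysts. The likelihood ratio test gave 5 and 5 in polysomes from GV to MII, 5 rising from morula to blastocyst, 4 differences from MII to the 2-cell stage, and in the gradient 1 lower in MII, 7 higher at the 8-cell stage and 3 higher and 1 lower in morulae. DESeq2's size factors in edgeR gave 2 rising from MII to the 2-cell stage and 0 from the 8-cell stage to the morula in the transcriptome. With no filter, 4 fell in the transcriptome and 3 rose in polysomes from MII to the 2-cell stage. Without the 3 thin libraries, 0 were higher in morula F8-F10. The slope over F3 to F10, which takes the fractions of 1 gradient as separate samples so that its p-values are too small, called 9 higher and 12 lower in GV (all genes, 24.8% and 20.9%), 8 and 6 in MII, 1 and 12 at the 2-cell stage, 0 and 2 in morulae and 5 lower in blastocysts. The filter was applied stage by stage in this fit, so fewer members were tested at some stages. Shares of all genes are not given for the stages after GV, so those counts are no result about the members.

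Whether the letters pair polysome pools with transcriptomes within a stage could not be decided, and pairing across stages was not tested. With a replicate block, 72 of the calls on single genes ended and 286 held. Of those that ended, 59 were between polysomes and the transcriptome of a stage. By count, 3 members rose in polysomes from MII to the 2-cell stage, 6, 9, 9, 11 and 8 were higher in polysomes than in the transcriptome in GV, MII, 2-cell, 8-cell and blastocyst samples, 17 and 6 were lower at the 8-cell and blastocyst stages, 1 differed in change from MII to the 2-cell stage, and 0 were higher in morula F8-F10.

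Leaving out 1 letter at a time gave these ranges. In the transcriptome, 2 to 21 rose and 3 to 9 fell from GV to MII, 1 to 9 and 1 to 12 from MII to the 2-cell stage, 9 to 17 fell at the 8-cell stage, 0 to 6 and 0 to 4 at the morula, and 1 to 6 and 12 to 32 at the blastocyst. In polysomes, 0 to 6 rose and 1 to 19 fell from GV to MII, 0 to 17 and 2 to 10 from MII to the 2-cell stage, 8 to 18 and 8 to 18 at the 8-cell stage, 11 to 19 and 5 to 16 at the morula, and 1 to 13 and 7 to 25 at the blastocyst. Differences of the changes numbered 2 to 34, 0 to 15, 1 to 28, 3 to 26 and 4 to 37 over the 5 steps. Polysomes were higher than the transcriptome for 8 to 21 in GV, 10 to 20 at the 2-cell stage, 10 to 22 in morulae and 9 to 18 in blastocysts, and lower for 14 to 25 in GV, 15 to 34 in morulae and 8 to 23 in blastocysts. In F8-F10 against F3-F5, 0 to 4 were higher and 0 to 5 lower at the 8-cell stage, 0 to 4 higher and 0 to 2 lower in morulae, 0 to 1 lower in blastocysts and 0 lower in GV.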
